A study of Macaca mulatta with 4 samples.

Results

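The mitochondrial ribosomal protein genes were taken as every gene of the deposited count table whose symbol is MRPL or MRPS followed by a number and, in some, a final letter. This gave 46 of 21314 genes, 34 MRPL genes named for the large subunit and 12 MRPS genes named for the small subunit, each with a single identifier. They are 34 of 49 MRPL and 12 of 28 MRPS protein-coding symbols in the RefSeq gene table of assembly T2T-MMU8v2.0; the others, MRPL12 and MRPS7 among them, were not analysed here. Of the 46 genes, 45 passed the filter on low counts and were tested, and the exception was MRPS21.

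RNA was sequenced from morulae of the rhesus macaque (Macaca mulatta), a preimplantation stage just before the blastocyst cavity opens, in 2 libraries of GG embryos and 2 of AG embryos. The series describes its embryos as gynogenetic, with nuclear chromosomes of maternal origin only, and androgenetic, with nuclear chromosomes of paternal origin only. All 4 libraries came from morulae and their cDNA was amplified with a SMARTer low-input kit, per the labels' protocols, and the labels name no treatment, strain or age. Neither the number of embryos in a library nor the animals of origin are clear from the labels, so the p-values measure the spread between these libraries, which may be partly technical.

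Mitochondria carry their own ribosome, which makes the few proteins encoded by mitochondrial DNA, all of them membrane subunits of the respiratory chain and ATP synthase. Its RNA comes from mitochondrial DNA, whereas all of its proteins are encoded in the nucleus, made in the cytosol and imported. Some of these proteins descend from bacterial ribosomal proteins and others are found only in mitochondria. In the mammalian particle the large subunit forms peptide bonds and passes the new chain to the inner membrane, and the small subunit decodes the messenger RNA. Mitochondria of the early embryo come from the oocyte.

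Total estimated counts ranged from 21335918 to 29733977 in the GG libraries and from 14129608 to 19108735 in the AG libraries. Levels are given in CPM, counts scaled to a common total over the tested genes with TMM factors, and are therefore shares of each library's RNA. Markers of pluripotent embryonic cells, such as POU5F1 and DPPA2, were detected in every library, with 7 tested genes summing to 1164.5 and 1505 CPM in GG and to 534 and 519 CPM in AG. Of the 7, 3 were called higher in GG and 2, DPPA4 and KLF17, were called lower (log2 fold changes of -1.98 and -4.23), beside 6.34% and 6.58% of all 13227 genes tested. Trophectoderm markers summed to 375 and 681 CPM in GG against 153 and 133 CPM in AG over 6 genes, and 4 of the 6 were called higher in GG. TFAP2C, the most abundant of them in AG, had 48.1 and 61.7 CPM in GG and 104 and 110 CPM in AG and was not called, and GATA3 stayed at or under 2.08 CPM in every library. Primitive endoderm markers summed to 460 and 544 CPM in GG against 19.2 and 41.5 CPM in AG over 5 genes, with 3 called higher in GG. Most of the GG value was APOE, at 382 and 450 CPM in GG and 0.57 and 3.15 CPM in AG. GATA4 and GATA6, of the same list, had log2 fold changes of 0.36 and 0.09 and were not called. Oocyte markers summed to 784 and 990 CPM in GG against 452 and 334 CPM in AG over 8 genes. Of these, 3 were called higher in GG, KHDC3L, WEE2 and KPNA7. Most of the difference was KHDC3L, at 285 and 480 CPM in GG and 17.2 and 13.7 CPM in AG. OOEP, the other abundant gene, overlapped, at 368 and 478 CPM in GG and 425 and 312 CPM in AG. ZP1, ZP2 and ZP3 were not called, nor was NLRP5, with a log2 fold change of -2.16 at no more than 2.07 CPM. Blood markers summed to 14.8 and 17.5 CPM in GG against 155 and 69.1 CPM in AG over 5 genes, most of the AG value being PTPRC. Of the cumulus and sperm lists 1 gene each was tested, TNFAIP6 and SPATA18, at no more than 10.5 CPM, and FSHR, ODF1, PRM2 and TNP2 had 0 counts. The part of these differences in the results that follow was not tested. In whole embryos, fewer cells of a type and less RNA per cell cannot be told apart.

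Several large-subunit genes were higher in GG and none was called lower. Among 34 tested, 26 had a positive log2 fold change of GG over AG, beside 51.1% of all tested genes. With edgeR's quasi-likelihood test, 5 were higher in GG at a Benjamini-Hochberg adjusted p under 0.05, here termed called, and 0 were lower. The 5 genes, MRPL23, MRPL13, MRPL44, MRPL42 and MRPL17, made up 14.7% of the subunit, where 6.34% of the 13227 genes tested were called higher in GG, 6.58% were called lower and 12.9% were called in either direction. At an unadjusted p under 0.05, 13 large-subunit genes were higher in GG and 3 were lower, beside 15.8% and 16.3% of all genes tested. DESeq2 called 9 higher and 2 lower, beside 12.5% and 13.2% of the genes it gave an adjusted p (25.7% in either direction). The median log2 fold change of GG over AG was 0.55, with quartiles of 0.06 and 0.88, against a median of 0.04 and quartiles of -0.78 and 0.83 over all tested genes.

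**Figure D1:**
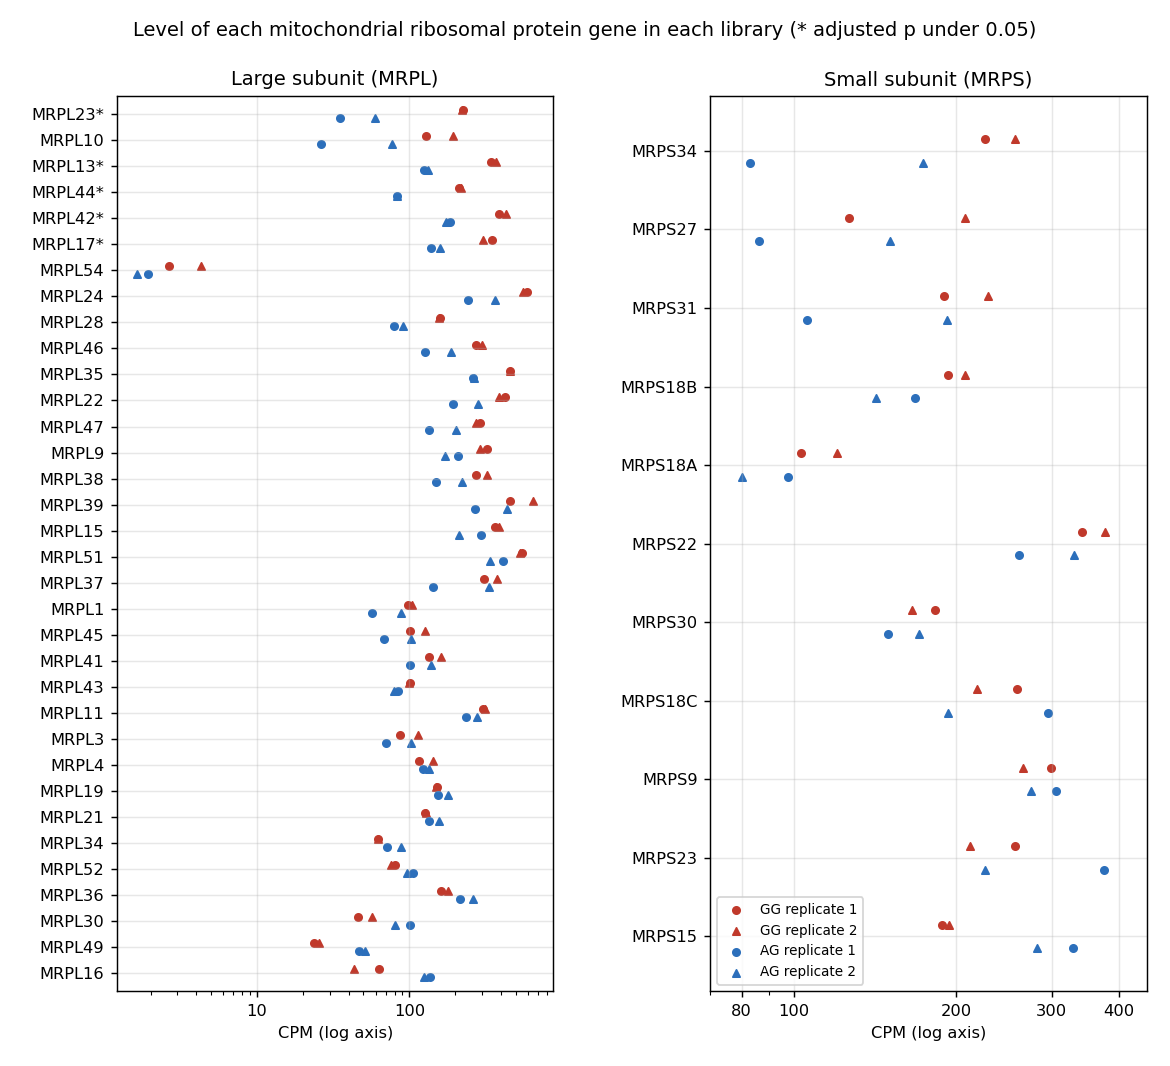
Level of each of the 45 tested genes in each library, in CPM on a log axis, with GG libraries in red above AG libraries in blue, circles for replicate 1 and triangles for replicate 2. Genes are ordered by log2 fold change and an asterisk marks an edgeR adjusted p under 0.05; MRPL23 shows the widest gap, with GG libraries at 221 and 225 CPM and AG libraries at 35.0 and 59.6 CPM.

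MRPL23 (ENSMMUG00000031268), the counterpart of bacterial L23 at the exit of the polypeptide tunnel, had 225 and 221 CPM in GG replicates 1 and 2, against 35.0 and 59.6 CPM in AG replicates 1 and 2. The GG libraries nearly coincided, while the AG libraries differed from each other by 1.70-fold, and the groups did not overlap. The log2 fold change was 2.23 ± 0.34 (SE, edgeR adjusted p = 0.0217), the largest of any mitochondrial ribosomal protein gene and equal to 4.70-fold.

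MRPL13 (ENSMMUG00000002599), the counterpart of bacterial L13, which joins the ribosome early in its assembly in bacteria, had 344 and 368 CPM in the GG libraries, against 125 and 132 CPM in the AG libraries. In both groups the replicates lay close together. The log2 fold change was 1.47 ± 0.23 (SE, edgeR adjusted p = 0.0222).

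MRPL44 (ENSMMUG00000006160), a protein found only in mitochondria that carries a fold related to RNase III and whose human mutations cause cardiomyopathy, had 211 and 219 CPM in GG, against 83.3 and 83.0 CPM in AG. Replicates of each group were nearly equal, so that the difference between groups was far wider than either spread. Its log2 fold change was 1.37 ± 0.24 (SE, edgeR adjusted p = 0.0278).

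MRPL42 (ENSMMUG00000016805), also specific to mitochondria, stood at 385 and 431 CPM in GG, against 184 and 175 CPM in AG (log2 fold change 1.18 ± 0.22 SE, edgeR adjusted p = 0.0321). MRPL17 (ENSMMUG00000004544), the counterpart of bacterial L17 and a neighbour of MRPL23 at the tunnel exit, stood at 348 and 304 CPM in GG, against 139 and 159 CPM in AG (1.13 ± 0.24 SE, edgeR adjusted p = 0.0390). Both genes separated the groups without overlap, by 2.27-fold and 2.18-fold.

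None of these calls held with a single GG library. Without GG replicate 1 or GG replicate 2, none of the 5 was called, at adjusted p from 0.136 to 0.301, and calls over all genes fell to 119 and 84. Without AG replicate 2, 15 large-subunit genes were called higher in GG and 1 lower, while 26.7% of all genes were then called. Across every alternative the 5 log2 fold changes stayed between 1.03 and 2.65. With the replicate number as a block, MRPL17 had an adjusted p of 0.0511.

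**Figure D2:**
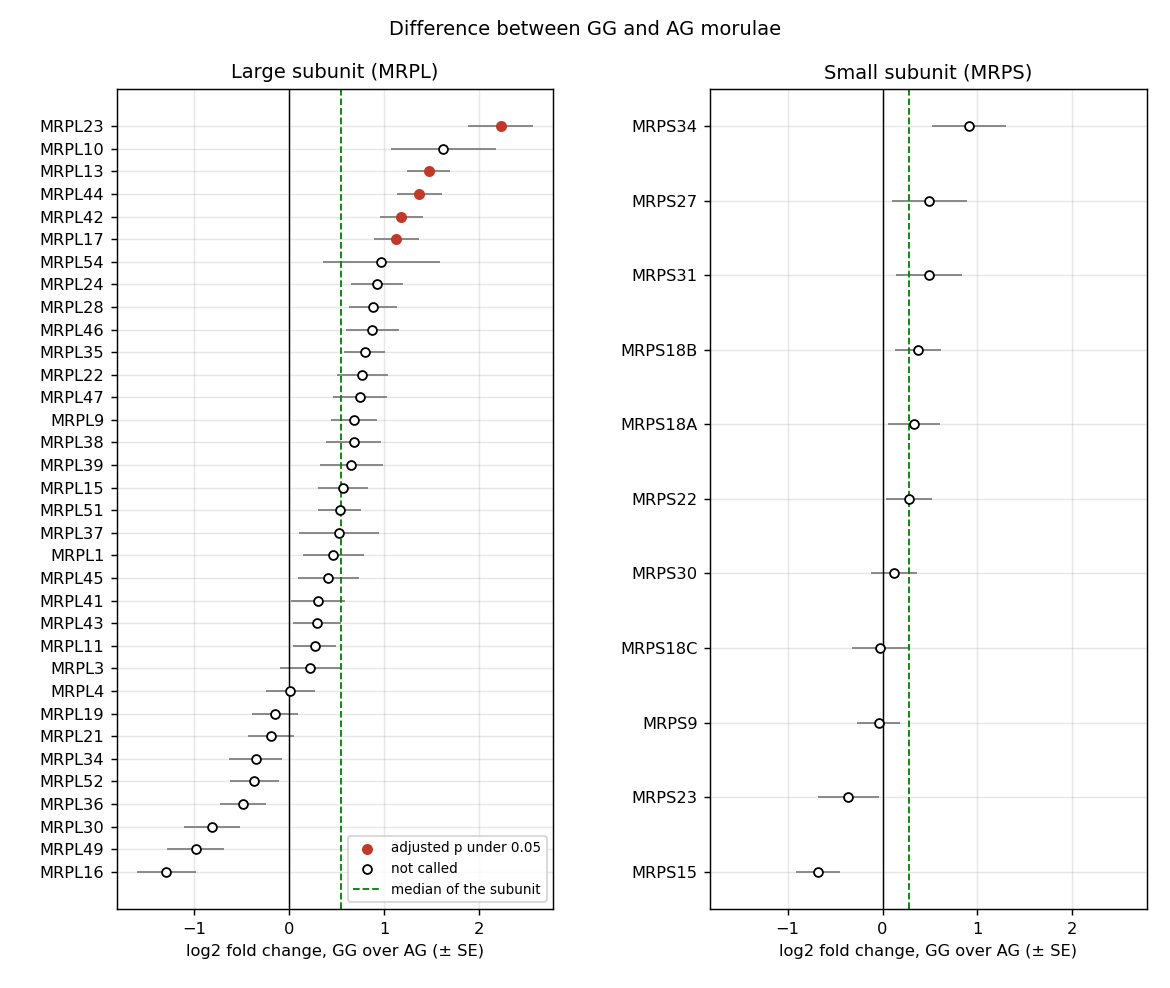
Log2 fold change of GG over AG for each tested gene, with its standard error as a bar, filled red where the edgeR adjusted p was under 0.05 and open elsewhere. The dashed green line is the median of the subunit, 0.55 for large-subunit and 0.28 for small-subunit genes, and the large-subunit genes run from -1.30 for MRPL16 to 2.23 for MRPL23.

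Of the large-subunit genes not called, 21 had positive log2 fold changes, from 0.01 to 1.63. MRPL10 (ENSMMUG00000021486), which anchors the flexible stalk that recruits translation factors, had the largest. It stood at 129 and 192 CPM in GG, against 26.4 and 77.5 CPM in AG, a log2 fold change of 1.63 ± 0.55 (SE, edgeR adjusted p = 0.108). The groups did not overlap, but AG replicate 2 exceeded AG replicate 1 by 2.94-fold, the widest replicate difference of any mitochondrial ribosomal protein gene. MRPL10 was called without a filter on low counts, with DESeq2, with the replicate block and without AG replicate 2 (adjusted p = 0.0371, 0.0166, 0.0368 and 0.00698).

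Genes with the most reads of the subunit were MRPL24, MRPL51 and MRPL39, and none of them was called with edgeR over all libraries. MRPL24, another protein of the tunnel exit, stood at 594 and 556 CPM in GG and at 244 and 363 CPM in AG (log2 fold change 0.92 ± 0.27 SE, edgeR adjusted p = 0.0792); it was called with DESeq2 and without AG replicate 2 (0.0372 and 0.0105). MRPL51, specific to mitochondria, had 550 and 534 CPM in GG and 411 and 339 CPM in AG. MRPL39, which carries a domain related to threonyl-tRNA synthetase, had 457 and 653 CPM in GG and 270 and 435 CPM in AG, and was called without AG replicate 2 (adjusted p = 0.0492). Each of the 3 had both GG values above both AG values. At the other end, MRPL54 had only 56 and 126 counts in GG and 27 and 32 counts in AG, too few for a precise ratio (0.97 ± 0.62).

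Over the whole subunit, both GG libraries lay above both AG libraries in 21 of 34 genes (61.8%), beside 33.4% of all tested genes. They lay below both in 8 genes (23.5%), beside 30.7% of all tested genes, and the groups overlapped in 5. The 21 were read against the position of each protein in the mammalian particle, a grouping made after the values were seen. MRPL17, MRPL22, MRPL23, MRPL24, MRPL45 and MRPL47 surround the emerging chain at the exit of the polypeptide tunnel. Of these 6 genes, 5 had both GG libraries above both AG libraries and 2 were called higher, beside 33.4% and 6.34% of all tested genes. Their log2 fold changes ran from 0.41 for MRPL45, which tethers the ribosome to the inner membrane and whose groups overlapped, to 2.23 for MRPL23, with a median of 0.85. MRPL38 and MRPL46, of the central protuberance that touches the small subunit, had log2 fold changes of 0.68 and 0.88 and no overlap, and neither was called. MRPL11, which sits with MRPL10 at the base of the stalk, differed by 0.27 ± 0.23. The remaining 24 large-subunit genes had a median of 0.38, with 3 called higher, beside the same 6.34%. The places hold few genes each, and a difference between them was not tested. In 12 of the 24 both GG libraries lay above both AG libraries, in 8 below, and in 4 the groups overlapped.

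The 8 large-subunit genes with negative log2 fold changes were also the 8 in which both GG libraries lay below both AG libraries. MRPL16 (ENSMMUG00000022319), the counterpart of bacterial L16, which lies near the catalytic centre, had 63.5 and 43.0 CPM in GG, against 137 and 124 CPM in AG. Its groups were well apart, yet its edgeR adjusted p was 0.0502, just above the threshold (log2 fold change -1.30 ± 0.31 SE). MRPL16 was called lower in GG with DESeq2 size factors, without a filter, with a minimum mean of 10 CPM, with the replicate block, after thinning, with DESeq2 and without AG replicate 2 (adjusted p from 0.00303 to 0.0486). Without AG replicate 1 and with upper-quartile normalization it was not (0.0516 and 0.0541), nor without GG replicate 1 or 2 (0.219 and 0.365).

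MRPL49, specific to mitochondria, stood at 23.7 and 25.6 CPM in GG and at 46.6 and 51.0 CPM in AG, without overlap (log2 fold change -0.99 ± 0.30 SE, edgeR adjusted p = 0.0852). MRPL30, the counterpart of bacterial L30, had 45.9 and 57.3 CPM in GG and 101 and 81.0 CPM in AG (-0.81 ± 0.30 SE). MRPL36, the counterpart of the small zinc-binding bacterial L36, had 161 and 178 CPM in GG and 214 and 262 CPM in AG (-0.49 ± 0.25 SE). None of the 3 was called, although in each the groups did not overlap. Among the other 4, MRPL52, MRPL34, MRPL21 and MRPL19, log2 fold changes were between -0.37 and -0.15.

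Small-subunit genes showed no call. With edgeR 0 of 11 tested were called in either direction, beside 12.9% of all genes, and with DESeq2 also 0, beside 25.7%. At an unadjusted p under 0.05 in edgeR, 0 were higher and 1, MRPS15, was lower in GG, beside 15.8% and 16.3% of all genes. Positive log2 fold changes were found in 7 genes and negative ones in 4, from -0.68 to 0.91 with a median of 0.28. Both GG libraries lay above both AG libraries in 4 of 11 genes (36.4%, beside 33.4% of all tested genes) and below both in 1 (9.09%, beside 30.7%), and the groups overlapped in 6. Standard errors were 0.23 to 0.40 on the log2 scale, and a missing call does not show that a gene was at the same level in both groups. The difference between the subunits was not tested.

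MRPS34 (ENSMMUG00000018594), a protein specific to mitochondria in which human mutations cause Leigh syndrome, had the largest positive change. It stood at 226 and 257 CPM in GG, against 83.0 and 173 CPM in AG (log2 fold change 0.91 ± 0.39 SE, edgeR adjusted p = 0.175). Its AG libraries differed by 2.09-fold, and it was called without AG replicate 2 (adjusted p = 0.0101). MRPS27, an RNA-binding protein of the pentatricopeptide repeat type, had 126 and 207 CPM in GG and 86.1 and 151 CPM in AG. MRPS31, specific to mitochondria, had 190 and 229 CPM in GG and 106 and 192 CPM in AG, and was called without AG replicate 2 (adjusted p = 0.0414). For both of these genes the groups overlapped, since AG replicate 2 reached the lower GG library. MRPS18B stood at 193 and 207 CPM in GG and at 167 and 142 CPM in AG, without overlap (0.37 ± 0.24 SE).

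In the other direction MRPS15 (ENSMMUG00000020433), the counterpart of bacterial S15, had 188 and 193 CPM in GG, against 329 and 282 CPM in AG. The groups did not overlap and the GG libraries nearly coincided (log2 fold change -0.68 ± 0.23 SE, edgeR adjusted p = 0.107), and the gene was called only without AG replicate 2 (0.0363). MRPS23, specific to mitochondria, had 257 and 211 CPM in GG and 375 and 226 CPM in AG, with AG replicate 2 inside the GG range. MRPS9, the counterpart of bacterial S9, and MRPS18C, a member of the S18 family, had log2 fold changes of -0.04 ± 0.23 and -0.03 ± 0.30. The log2 fold changes of MRPS23, MRPS9 and MRPS18C were positive without AG replicate 1, and those of MRPS9 and MRPS18C also without GG replicate 2.

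MRPS22, a protein specific to mitochondria linked to ovarian dysgenesis in humans, had the most reads of the MRPS genes. It stood at 341 and 376 CPM in GG and 262 and 330 CPM in AG. MRPS21, the counterpart of bacterial S21, had 0 and 1 counts in the GG libraries and 0 counts in both AG libraries, which allows up to 0.214 and 0.152 CPM in AG replicates 1 and 2 by counting error alone. MRPS30 and MRPS18A carry small-subunit names but sit in the large subunit of the mammalian particle. They differed by 0.12 ± 0.24 and 0.33 ± 0.27, and counting them with the large subunit left 5 of 36 genes called there and 0 of 9 in the small subunit.

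Genes classed as bacterial-type and as specific to mitochondria were compared after the same structural assignment. That classing put MRPS18A and MRPS18B with the genes specific to mitochondria, although they share the S18 family with MRPS18C, classed as bacterial-type. In the large subunit, 3 of 21 genes of the bacterial type and 2 of 15 genes specific to mitochondria were called higher in GG, and 0 of either were called lower (14.3% and 13.3% higher, beside 6.34% of all tested genes higher and 6.58% lower). Their median log2 fold changes were 0.57 and 0.53. Of the 8 genes with negative log2 fold changes, 6 were of the bacterial type, MRPL49 and MRPL52 being the others. In the small subunit, 3 genes of the bacterial type had log2 fold changes from -0.68 to -0.03, and 6 genes specific to mitochondria had a median of 0.43. MRPS18B was among the latter at 0.37, and counted with MRPS18C it would give the bacterial type both signs. In either class edgeR and DESeq2 called 0, beside 12.9% and 25.7% of all genes. At an unadjusted p under 0.05 in edgeR, MRPS15 alone passed, beside 32.0% of all genes.

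Summed over the subunit, large-subunit genes had 7778 and 8217 CPM in the GG libraries, against 4820 and 5750 CPM in the AG libraries. The GG mean of 7998 ± 310 CPM was 1.51 times the AG mean of 5285 ± 658 CPM (SD, n = 2 each), and the groups did not overlap. Small-subunit genes summed to 2365 and 2452 CPM in GG, against 2256 and 2214 CPM in AG, a ratio of 1.08. DAP3, a small-subunit gene with another name, was not in this sum. Cytosolic ribosomal protein genes, the most similar gene family, summed to 37706 and 31032 CPM in GG and 31310 and 33214 CPM in AG for 34 large-subunit genes. For 25 cytosolic small-subunit genes the sums were 28974 and 23344 CPM in GG and 26379 and 26841 CPM in AG. In both cytosolic sets the groups overlapped, with ratios of 1.07 and 0.983. No p is given for these sums.

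**Figure D3:**
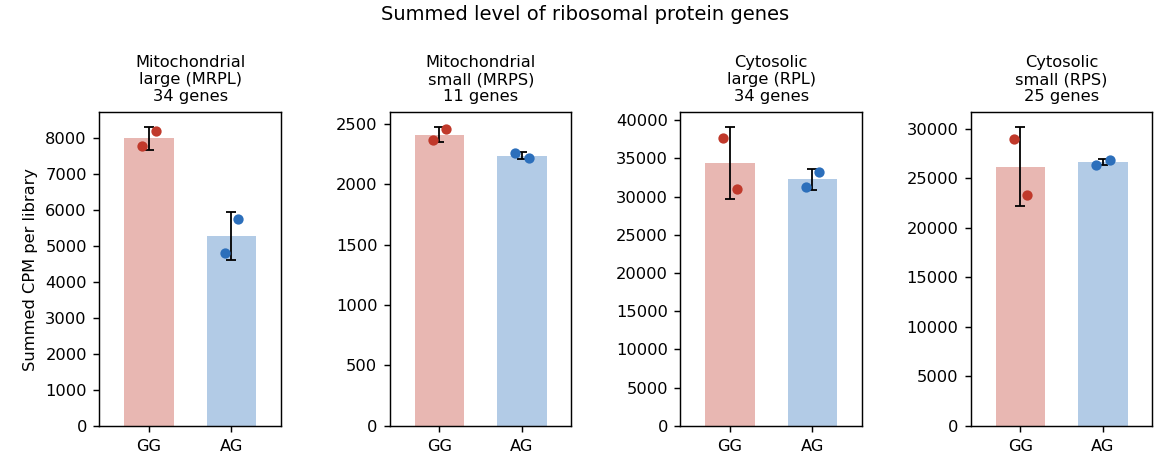
Summed CPM of the tested genes of each ribosomal subunit in each library, with bars at the group mean, error bars of 1 SD (n = 2) and points for single libraries, GG left of AG. The y axes start at 0 and differ between panels. Mitochondrial large-subunit genes reach 7778 and 8217 CPM in GG against 4820 and 5750 CPM in AG, and the cytosolic sets overlap.

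Wide gaps between replicates were more frequent in AG than in GG. In the large subunit AG replicate 2 exceeded AG replicate 1 by more than 1.5-fold in 6 of 34 genes, MRPL10 and MRPL37 furthest, and GG replicate 2 exceeded GG replicate 1 by that much in 1. In the small subunit such a gap was found in 5 of 11 genes between AG replicates, 3 higher and 2 lower in replicate 2, and in 1 between GG replicates. The median log2 ratio of AG replicate 2 to AG replicate 1 was 0.22 for large-subunit and -0.15 for small-subunit genes, against 0.07 for all tested genes. MRPL37, which is related to MRPS30, had 310 and 374 CPM in GG and 143 and 331 CPM in AG, and its log2 fold change of 0.53 ± 0.42 was not called. Across the 34 large-subunit genes, levels ranked much alike in the replicates (Spearman rho 0.981 between GG and 0.911 between AG libraries) and less alike between group means (0.788). For 11 small-subunit genes the corresponding values were 0.836, 0.691 and 0.473. Over all 13227 tested genes, rho was 0.968 between GG and 0.931 between AG libraries. Between single libraries of different groups it was 0.803 to 0.858, so a lower likeness between groups was not particular to these genes. These correlations are across genes, which differ in length and are not independent, and describe these libraries only.

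**Figure D4:**
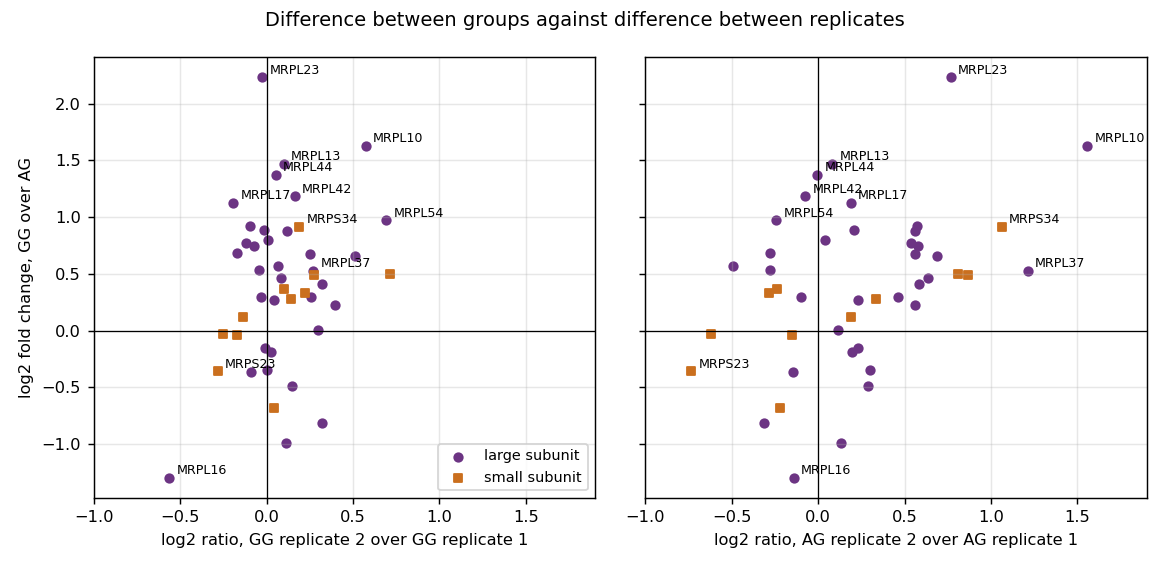
Log2 fold change of GG over AG for each tested gene against the log2 ratio of its replicates, GG replicates on the left and AG replicates on the right. Called genes lie high with small replicate ratios, apart from MRPL23 in AG, whereas MRPL10, MRPL37 and MRPS34 lie far to the right among AG replicates.

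MRPL23 lies beside an imprinted region. In the RefSeq gene order of assembly T2T-MMU8v2.0, TNNT3 precedes it, and the noncoding H19 and then IGF2, the maternally and paternally expressed genes of that region, lie on its other side, beyond the uncharacterised gene LOC114672209. IGF2, a fetal growth factor gene, had 1 and 3 counts in GG and 8 and 11 counts in AG, opposite in direction to MRPL23 and not called (edgeR adjusted p = 0.112). TNNT3 and PRR33 had 0 counts in every library, and LSP1 had 0 counts in GG and 0 and 1 counts in AG. H19 was not analysed here. MRPL44 lies between WDFY1 and SERPINE2 in the same gene order. SERPINE2, which encodes a secreted protease inhibitor, was lower in GG (394 and 545 counts in GG, 1558 and 1586 counts in AG; log2 fold change -2.36 ± 0.32 SE, edgeR adjusted p = 0.0176). WDFY1 differed by 1.77 ± 1.52 and was not called. MTBP, next to MRPL13, differed by 0.26 ± 0.34, and UBE2N, next to MRPL42, by 0.24 ± 0.28. On one side of MRPL17, DCHS1, TPP1 and TAF10 differed by -5.46 ± 1.37, 4.88 ± 1.19 and 1.18 ± 0.31, and none was called. Any link between neighbours and called genes was not tested. These neighbours were chosen after the values of the called genes were seen.

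Other genes of mitochondrial translation were taken from fixed lists. The list of ribosome-associated proteins with other names held 5 tested genes, DAP3, PTCD3, GADD45GIP1, OXA1L and KGD4. KGD4, formerly named MRPS36, encodes a subunit of the alpha-ketoglutarate dehydrogenase complex rather than of the ribosome. With edgeR 0 were called and 1 had an unadjusted p under 0.05, and DESeq2 called 1. Over all genes these shares were 12.9%, 32.0% and 25.7%. All 5 had positive log2 fold changes, with a median of 0.43, the value of KGD4. Without KGD4 they ran from 0.09 for GADD45GIP1 to 0.88 for DAP3. DAP3, a GTP-binding protein of the small subunit, had 572 and 505 CPM in GG and 284 and 300 CPM in AG (0.88 ± 0.22 SE, edgeR adjusted p = 0.0539). It was called without a filter, with a minimum mean of 10 CPM, with DESeq2 and without AG replicate 2 (adjusted p = 0.0483, 0.0416, 0.0227 and 0.0257). OXA1L, the insertase of the inner membrane that receives the new chain, had 139 and 196 CPM in GG and 88.1 and 117 CPM in AG (0.71 ± 0.31 SE).

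Ribosome assembly factors had 1 of 18 tested genes called higher in GG and 0 lower. That is 5.56%, near the 6.34% of all tested genes called higher. METTL15, which methylates the ribosomal RNA of the small subunit, had 32.0 and 33.9 CPM in GG, against 6.41 and 6.55 CPM in AG, with nearly equal replicates (log2 fold change 2.35 ± 0.35 SE, edgeR adjusted p = 0.0209). The median of the list was 0.16. Translation factors had 2 of 14 called higher in GG (14.3%, beside 6.34% of all tested genes) and 0 lower, with a median of 0.49. MTRF1, a release factor, had 51.4 and 60.3 CPM in GG, against 5.98 and 12.04 CPM in AG (2.63 ± 0.45 SE, edgeR adjusted p = 0.0269). TSFM, the exchange factor that reloads the elongation factor TUFM, had 317 and 351 CPM in GG, against 111 and 155 CPM in AG (1.32 ± 0.27 SE, edgeR adjusted p = 0.0371). The groups of all 3 genes did not overlap, but none was called without either GG replicate (adjusted p from 0.137 to 0.268).

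Genes of mitochondrial transcription and genome maintenance showed 0 edgeR calls among 8 tested, beside 12.9% of all tested genes, with a median of 0.01. In edgeR 1 had an unadjusted p under 0.05, and DESeq2 called 0, beside 32.0% and 25.7% of all genes. With so few genes, 0 calls does not set the list apart from all genes. TFAM, which packages mitochondrial DNA and starts its transcription, had 305 and 276 CPM in GG and 182 and 151 CPM in AG (0.80 ± 0.24 SE, edgeR adjusted p = 0.0827), and was called without AG replicate 1 (0.0437). POLG2, the accessory subunit of the mitochondrial DNA polymerase, had 36.2 and 43.4 CPM in GG and 62.8 and 53.5 CPM in AG.

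Regulators of mitochondrial biogenesis had 2 of 10 tested genes called lower in GG (20.0%, beside 6.58% of all tested genes) and 0 higher, with a median of -0.83. MYC, a transcription factor that in mammals drives ribosome and mitochondrial genes, had 12.7 and 6.51 CPM in GG, against 49.2 and 50.6 CPM in AG (-2.38 ± 0.44 SE, edgeR adjusted p = 0.0299). SP1, a factor of GC-rich promoters, had 8.45 and 6.41 CPM in GG, against 27.1 and 22.3 CPM in AG (-1.73 ± 0.39 SE, edgeR adjusted p = 0.0444). Any link of MYC or SP1 to the levels of the ribosomal protein genes was not tested. Without either GG replicate neither was called (adjusted p from 0.118 to 0.323). PPARGC1A, a coactivator on this list, did not pass the filter.

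Protein quality control genes of mitochondria had 2 of 12 tested genes called higher in GG (16.7%, beside 6.34% of all tested genes) and 1 lower (8.33%, beside 6.58%), with a median of 0.39. HSPE1 and HSPD1 encode the co-chaperonin and chaperonin that fold proteins in the matrix. HSPE1 had 3250 and 2698 CPM in GG, against 250 and 505 CPM in AG (2.98 ± 0.39 SE, edgeR adjusted p = 0.0168), and HSPD1 had 3495 and 3203 CPM in GG, against 509 and 909 CPM in AG (2.24 ± 0.33 SE, edgeR adjusted p = 0.0207). CLPP, a matrix protease, went the other way, with 105 and 125 CPM in GG, against 268 and 233 CPM in AG (-1.13 ± 0.25 SE, edgeR adjusted p = 0.0435). With the replicate block CLPP had an adjusted p of 0.0565, and without either GG replicate none of the 3 was called (adjusted p from 0.0602 to 0.338).

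**Figure D5:**
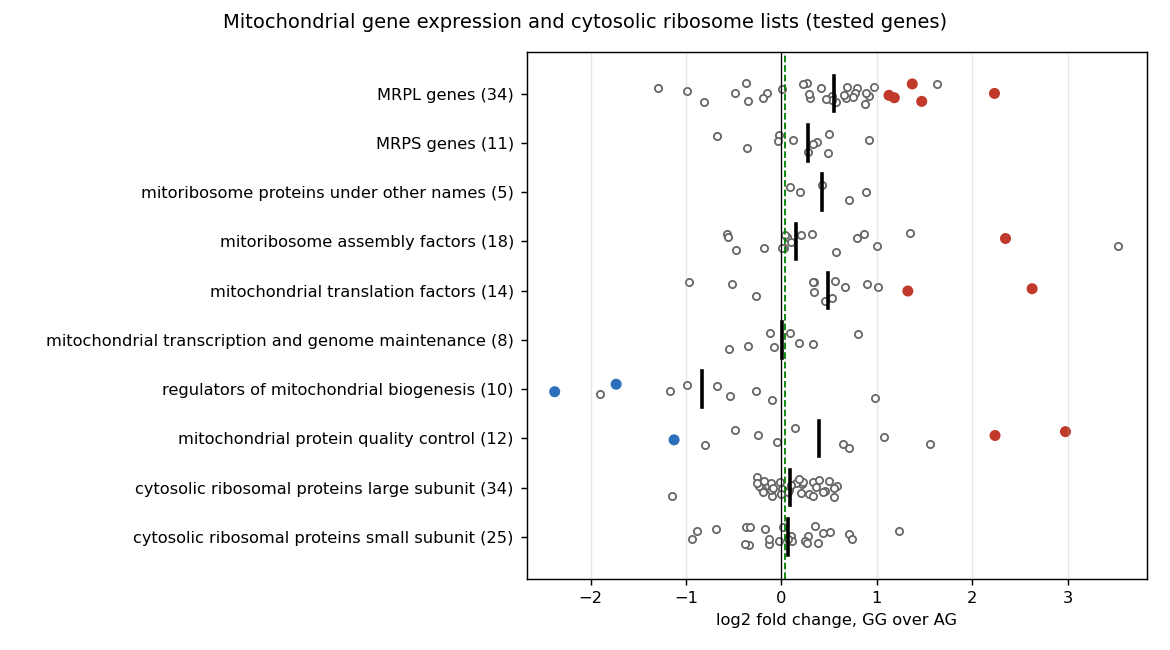
Log2 fold change of GG over AG for the tested genes of each list, with the number tested in brackets, red where called higher in GG, blue where called lower and open elsewhere. Black bars are list medians and the dashed green line is the median of all tested genes, 0.04; the median is 0.55 for MRPL genes and -0.83 for regulators of mitochondrial biogenesis.

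Cytosolic ribosomal protein genes showed no call with edgeR. Of 34 large-subunit and 25 small-subunit cytosolic genes tested, edgeR called 0, beside 12.9% of all genes. At an unadjusted p under 0.05, 0 and 3 were higher and 1 and 1 were lower, beside 15.8% and 16.3% of all genes. DESeq2 called 0 and 1 higher and 1 and 0 lower, beside 12.5% and 13.2% of the genes it gave an adjusted p. Median log2 fold changes were 0.09 and 0.07, and the SD of the log2 fold changes over genes was 0.75 for the mitochondrial and 0.34 for the cytosolic large subunit, and 0.44 for the mitochondrial and 0.51 for the cytosolic small subunit. RPL18 had the smallest p of its list, with 258 and 186 CPM in GG and 436 and 545 CPM in AG (-1.15 ± 0.27 SE, edgeR adjusted p = 0.0502). RPL18 was called lower in GG with DESeq2 size factors, without a filter, with a minimum mean of 10 CPM, after thinning, with DESeq2 and without either AG replicate (adjusted p from 0.00542 to 0.0458). It was followed by RPL10, at 886 and 686 CPM in GG and 625 and 422 CPM in AG. Of the small cytosolic subunit, RPS2 had 1335 and 1127 CPM in GG and 385 and 661 CPM in AG (1.24 ± 0.32 SE, edgeR adjusted p = 0.0573). RPS2 was called higher in GG without a filter, with a minimum mean of 10 CPM, with DESeq2 and without either AG replicate (adjusted p from 0.00491 to 0.0496). RPS27 had 682 and 561 CPM in GG and 414 and 330 CPM in AG. Ribosomal protein genes have many processed copies in primate genomes, so reads of RPL18, RPL10, RPS2 and RPS27 may be divided among near-identical sequences.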

How the data were processed

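The authors deposited a table of estimated counts per Ensembl gene, 1 column per library, not scaled to depth. Trim Galore, STAR 2.6.0c, Salmon 0.12.0 and build rheMac8 are named without role or order, per the submitters' processing notes; the sources used here do not give the annotation release, strand setting or filters. In 13 of 34 MRPL and 6 of 12 MRPS genes at least 1 deposited value was not whole (MRPL10 and MRPL39 in all 4 libraries, MRPL13, MRPL17, MRPL23 and MRPL42 in none). Overlapping or antisense genes cannot be told apart.

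Symbols matched 14654 of 21314 identifiers (68.8%). Counts were rounded and tested with edgeR 4.0.16 (R 4.3.3), using filterByExpr by group (minimum count 10, minimum total count 15), TMM, the quasi-likelihood F test with group alone, and Benjamini-Hochberg adjustment over 13227 genes. Fold changes are GG over AG, and each SE is implied by the F statistic. The fit was also run on simulated counts with a fixed dispersion and log2 changes larger than those of nearly all members. That run cannot show how reliable calls of smaller changes are here. Alternatives were DESeq2 1.42.0, other scalings and filters, thinning, a replicate block and leaving out each library. No base or amino acid sequences were used, and without gene lengths, levels of different genes are not comparable as molecules.

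Members and lists were chosen with earlier results of these data known. Named genes are called members, the 4 largest changes per subunit and direction at a mean of at least 10 CPM, the 3 with the most reads per subunit, untested members, and up to 4 called (otherwise 2) genes with the smallest p per other list. The exit site, protuberance and stalk genes, MRPL19, MRPL21, MRPL34, MRPL37, MRPL52, MRPL54, MRPS30, MRPS18A, the single markers and the neighbours were named after their values were seen.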

Additional observations from a re-analysis of the deposited data

How the results depend on the processing

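The sign turned for 3 genes, none of them called, without AG replicate 1, and for MRPS9 and MRPS18C also without GG replicate 2; without 1 library the log2 fold change ranged from -0.70 to 0.044 for MRPS23, from -0.13 to 0.030 for MRPS9 and from -0.33 to 0.30 for MRPS18C. No other gene named by rule changed sign under any alternative. Genes named after their values were seen were not followed across the alternatives. Genes called in all numbered 1709, against 2609 with no filter on low counts and 3333 with the DESeq2 test, and 84 to 3786 when 1 library was left out. Large-subunit genes called higher in GG numbered 5 and were 5 or 6 under every other scaling, filter, thinning and the replicate block, 9 with DESeq2 and 0 to 15 without 1 library, 0 without either GG replicate and 15 without AG replicate 2. Those called lower in GG went from 0 to 1 (MRPL16) with DESeq2 size factors, without a filter, with a minimum mean of 10 CPM, after thinning and with the replicate block, to 2 with DESeq2 (MRPL49 added), and ranged from 0 to 1 without 1 library. Small-subunit calls remained at 0 except without AG replicate 2, with 2 higher and 1 lower (range 0 to 2 and 0 to 1). The median log2 fold change ranged from 0.38 to 0.76 for large-subunit and from 0.11 to 0.35 for small-subunit genes without 1 library, and the ratio of sums from 1.38 to 1.64 and from 1.04 to 1.10. Leaving out AG replicate 2 moved the median of all genes to 0.13, against 0.04. A group left with 1 library was assumed to vary like the other group. The causes were not tested. Same-numbered libraries shared a number only, with deviations from group means correlated at 0.0986 over 13227 genes, and the replicate block left 1697 genes called; 4 of the 5 ribosomal protein genes kept their call, MRPL17 lost it, and MRPL10 and MRPL16 were added. Summing identifiers per symbol changed nothing, since no symbol had several. With 2 libraries per group, changes the size of the standard errors, 0.21 to 0.62 on the log2 scale, cannot be resolved.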
